A study of Mus musculus with 6 samples.

Results

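*Retnlg*, *Csf3r* and *Mmp9* are 3 granulocyte genes, taken by symbol from the 8191 genes measured in splenic myeloid-derived suppressor cells (MDSCs) of aged mice. The study compared old WT mice with old Tnfr1-/- and Tnfr2-/- mice, which lack one or the other receptor of TNF-α, all on a BALB/c background and aged 18 to 24 months, with no treatment. Each of the 6 samples, 2 per genotype from 2 independent experiments, pooled the MDSCs of 5 mice. Which part of each receptor gene the knockouts lack, and whether the deletion is limited to some cells, is not given in the sources used here. The labels give cell sorting and the methods an MDSC isolation kit with a check for CD45+ Gr1+ CD11b+ cells, both granulocytic and monocytic, and which was used for these samples is not clear. The 3 genes were selected on these same FPKM values, for wide differences between WT and both knockouts, so their levels and differences are given as a description, with no test.

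Granulocytic MDSCs resemble neutrophils, and neutrophils fill their granules in order as they mature in the bone marrow, with primary granules first, then secondary granules, then gelatinase granules. *Csf3r* encodes the receptor of granulocyte colony-stimulating factor (G-CSF), which drives neutrophil production and release and signals through JAK kinases and STAT proteins. *Mmp9* encodes gelatinase B, a secreted protease of gelatinase granules that cleaves denatured collagen and basement membrane. *Retnlg* encodes resistin-like gamma, a small secreted cysteine-rich protein of the resistin family that is made by mouse bone marrow and neutrophils.

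*Retnlg* lies on chromosome 16 (GRCm38, 48872621 to 48874496, plus strand) with 4 exons and a principal transcript of 593 bases. *Csf3r* lies on chromosome 4 (126024550 to 126044440, plus strand) with 17 exons and a transcript of 3481 bases, and *Mmp9* on chromosome 2 (164940780 to 164955850, plus strand) with 13 exons and a transcript of 3175 bases. All are protein-coding. No window of 50 bases, the read length, of the *Retnlg* or *Mmp9* transcript also occurred in a transcript of another gene (0 of 544 and 0 of 3126 windows). Of the *Csf3r* transcript, 395 of 3432 windows (11.5%) also occurred in transcripts of other genes, 402 genes in all. Reads from these windows could have been counted for *Csf3r* or for any of those genes.

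The genes stand on 3 different chromosomes, and promoter windows of 300 bases (250 before a RefSeq start site and 50 from it on) are shown for *Retnlg* and *Csf3r*, the members with an entry, because both genes were high in the same samples. The *Retnlg* window is chr16:48872358-48872657 and the *Csf3r* window chr4:126024409-126024708, both GRCm38.p6 and plus strand. Capitals mark 2 short strings known as cores of myeloid factor sites, searched on both strands. The first is GAGGAA, a string of the kind bound by the ETS factor PU.1. The second is GCAAT, a core of C/EBP sites, which reads ATTGC when it lies on the other strand. The matches share no position here, and the strings were chosen after the windows had been read.
Retnlg: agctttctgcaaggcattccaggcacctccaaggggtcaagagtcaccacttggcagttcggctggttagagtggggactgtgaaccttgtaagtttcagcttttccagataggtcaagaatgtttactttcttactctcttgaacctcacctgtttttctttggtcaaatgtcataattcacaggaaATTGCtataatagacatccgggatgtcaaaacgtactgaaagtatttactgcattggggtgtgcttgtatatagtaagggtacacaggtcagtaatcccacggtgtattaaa
Csf3r: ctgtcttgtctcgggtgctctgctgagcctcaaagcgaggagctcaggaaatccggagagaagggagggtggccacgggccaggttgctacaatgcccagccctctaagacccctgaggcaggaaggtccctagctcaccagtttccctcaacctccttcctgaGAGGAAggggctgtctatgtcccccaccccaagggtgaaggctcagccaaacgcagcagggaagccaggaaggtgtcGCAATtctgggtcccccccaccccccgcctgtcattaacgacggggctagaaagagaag
The *Csf3r* window holds GAGGAA at position -86 and GCAAT at position -9, counted from the start site as 0, and the *Retnlg* window holds GCAAT on its minus strand at position -62 and no GAGGAA. Of all 32851 promoter windows of this length, 28.3% hold GAGGAA, 26.4% hold GCAAT and 7.77% hold both, so these matches are common and are given only as a description.

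*Tnfrsf1b*, which encodes TNFR2, was lowest in the Tnfr2-/- samples at 11.3 and 14.3 FPKM, against 47.8 and 69.6 FPKM in Tnfr1-/- and 111.8 and 114.9 FPKM in WT. *Tnfrsf1a*, which encodes TNFR1, was not analysed here. FPKM are fragments scaled to transcript length and to sequenced fragments, so levels of different genes in a sample can be compared. The 8191 genes summed to between 344714 and 346870 FPKM in WT and to between 133604 and 155248 FPKM in the knockouts. WT values carry up to 10 digits and knockout values up to 6. Among genes under 0.1 FPKM in both samples of a genotype, 74.5% of the ratios between WT samples lay within 0.05% of a ratio between whole numbers up to 6. In Tnfr1-/- this held for 5.34% and in Tnfr2-/- for 4.76%. In every comparison with WT given here, how the values were made and the genotype cannot be told apart. The 8191 genes are those the authors kept for a difference over the 3 genotypes.

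*Retnlg* was at 2.30 and 2.13 FPKM in WT. In Tnfr1-/- it was at 2364 and 1961 FPKM, and in Tnfr2-/- at 1649 and 1049 FPKM. Every knockout sample lay far above both WT samples, and the Tnfr2-/- samples both lay below the Tnfr1-/- samples. Its mean in WT was 2.22 ± 0.123 FPKM (SD, n = 2), compared with 2163 ± 285 FPKM for Tnfr1-/- and 1349 ± 425 FPKM for Tnfr2-/-. The ratio of means was 975-fold for Tnfr1-/- over WT and 608-fold for Tnfr2-/- over WT. In log2(FPKM + 1), the scale of all differences given here, Tnfr1-/- minus WT was 9.39 (standard error 0.24) and Tnfr2-/- minus WT 8.68 (standard error 0.24). Both were the highest of the 8191 differences in their comparison. Ranked by FPKM among the 8191 genes of a sample, *Retnlg* stood at places 6208 and 6269 in WT, at 2 and 3 in Tnfr1-/-, and at 5 and 12 in Tnfr2-/-. It was thus one of the lower genes in WT and one of the most abundant in the knockouts.

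For *Csf3r*, the WT values were 9.99 and 8.07 FPKM. The Tnfr1-/- values were 294 and 454 FPKM and the Tnfr2-/- values 424 and 286 FPKM. All knockout samples were above the WT samples, and the 2 knockouts overlapped. Its mean was 9.03 ± 1.36 FPKM (SD, n = 2) in WT, the highest WT level of the 3 genes, and the ratio of means was 41.5-fold in Tnfr1-/- and 39.3-fold in Tnfr2-/- over WT. The log2 difference from WT was 5.20 in Tnfr1-/- and 5.13 in Tnfr2-/- (standard error 0.29 each), at places 12 and 14 from the top of the 8191 differences. By FPKM it stood at places 3868 and 4278 in WT, at 51 and 28 in Tnfr1-/-, and at 33 and 56 in Tnfr2-/-.

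For *Mmp9*, WT had 3.13 and 3.46 FPKM. Tnfr1-/- had 411 and 316 FPKM, and Tnfr2-/- had 376 and 187 FPKM. Again every knockout sample was above both WT samples, while the Tnfr2-/- samples fell on both sides of the lower Tnfr1-/- sample. The ratio of means was 110.2-fold in Tnfr1-/- and 85.4-fold in Tnfr2-/- over WT, and the log2 differences from WT were 6.40 and 5.95 (standard error 0.35 each), both at place 6 from the top. Its mean in WT was 3.30 ± 0.233 FPKM (SD, n = 2), compared with 364 ± 67.0 FPKM for Tnfr1-/- and 282 ± 134 FPKM for Tnfr2-/-. By FPKM it stood at places 5851 and 5697 in WT, at 28 and 45 in Tnfr1-/-, and at 37 and 105 in Tnfr2-/-.

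**Figure D1:**
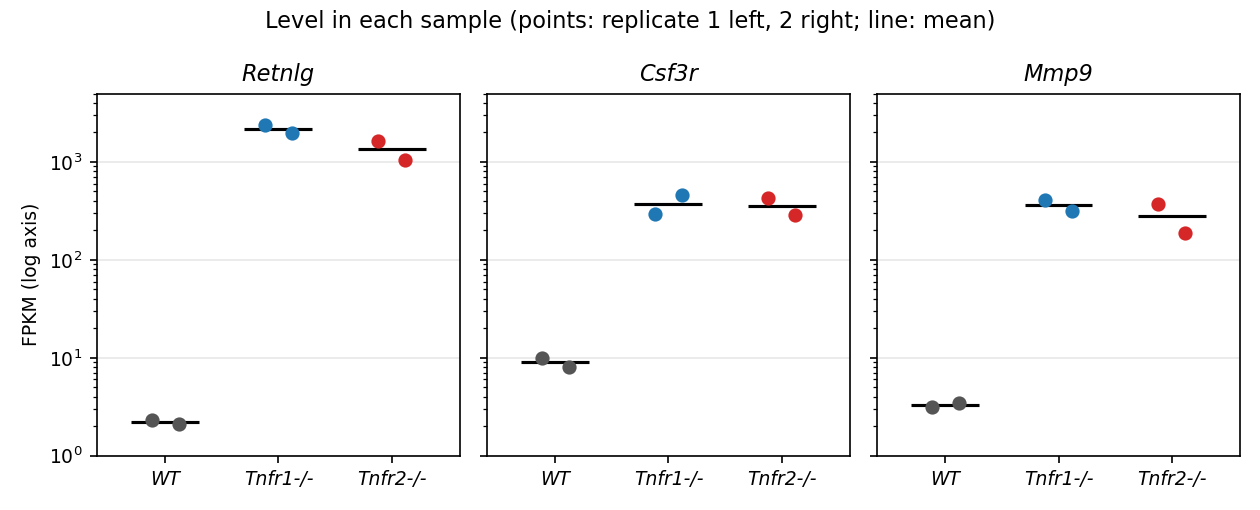
FPKM of *Retnlg*, *Csf3r* and *Mmp9* on a log axis in WT, Tnfr1-/- and Tnfr2-/- MDSCs. Points are the 2 samples of a genotype, replicate 1 on the left, and lines are their means. The WT samples sit between 2.13 and 9.99 FPKM and the knockout samples between 187 and 2364 FPKM.

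All 3 genes thus had higher values in every knockout sample than in any WT sample, and this contrast was what the genes were chosen for. Of all 8191 genes, 14.1% were called higher and 60.7% lower in Tnfr1-/- than in WT (74.8% in either direction), and 13.6% were called higher and 57.1% lower in Tnfr2-/- than in WT (70.7% in either direction), at an adjusted p under 0.05 from limma and a fold change over 1.5. The median difference of all genes was -0.83 in Tnfr1-/- and -0.74 in Tnfr2-/-, so in the FPKM as deposited the background of the 3 genes was mostly lower than WT. With median-ratio scaling the medians were -0.033 and -0.032. That scaling divides each sample by a median ratio over these same genes, so medians near 0 follow from the method. It takes the typical gene as unchanged, whereas all genes here were kept for a difference. Together they made up 0.00448% and 0.00394% of the summed FPKM in the WT samples, 2.28% and 2.04% in Tnfr1-/-, and 1.64% and 0.980% in Tnfr2-/-. In bulk samples such as these, fewer cells of a type and less RNA per cell cannot be told apart.

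**Figure D2:**
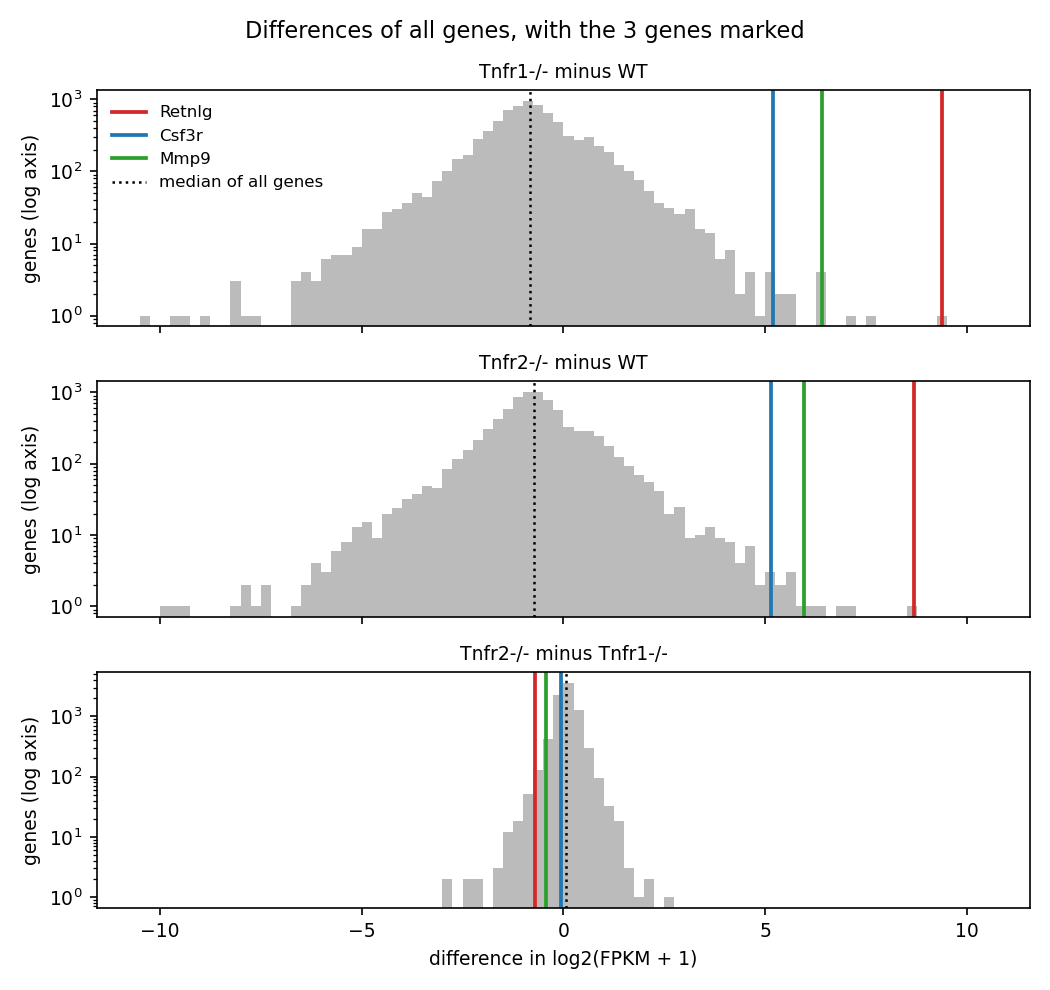
Histograms of the differences in log2(FPKM + 1) of all 8191 genes in the 3 comparisons, with gene numbers on a log axis, coloured lines at the 3 genes and a dotted line at the median. Against WT the 3 genes lie at the right end, between 5.13 and 9.39, and between the knockouts they lie between -0.71 and -0.07, left of the median of 0.06.

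Between the knockouts, the genes were at similar or lower levels in Tnfr2-/-. *Retnlg* had a ratio of means of 1.60-fold in favour of Tnfr1-/-, with a log2 difference (Tnfr2-/- minus Tnfr1-/-) of -0.71 (standard error 0.24), at place 100 from the lowest of all genes, and its samples did not overlap. Of all genes, 0.61% were called lower and 0.842% higher in this comparison, by adjusted p and fold change. That is another measure than overlap, and the share of all genes whose samples did not overlap was not counted. The size of the *Retnlg* difference depended on both Tnfr2-/- samples, since it was -0.38 without the second and -1.04 without the first. *Mmp9* had a log2 difference of -0.44 (standard error 0.35), which was within the spread of the Tnfr2-/- samples and turned to 0.06 without the second Tnfr2-/- sample. Without the first Tnfr2-/- sample it was -0.94, and without the first Tnfr1-/- sample -0.25. *Csf3r* had a log2 difference of -0.07 (standard error 0.29), far smaller than the gap between samples of one genotype. Its sign was not stable. It was 0.24 without the second Tnfr1-/- sample and 0.21 without the second Tnfr2-/- sample, against -0.38 and -0.35 without the first of either. In the order of levels, WT was lowest for all 3 genes, and for *Csf3r* and *Mmp9* the 2 knockouts could not be placed in order.

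The replicates of a genotype differed more for these genes than for most. Between the Tnfr2-/- samples, the first was higher by 1.57-fold for *Retnlg*, 1.48-fold for *Csf3r* and 2.01-fold for *Mmp9*. The median absolute log2 difference between these samples was 0.15 over all genes, and only 4.6%, 6.82% and 0.964% of genes differed by as much as *Retnlg*, *Csf3r* and *Mmp9*. Between the Tnfr1-/- samples, *Retnlg* and *Mmp9* were higher in the first by 1.21-fold and 1.30-fold, whereas *Csf3r* was higher in the second by 1.54-fold. The WT samples differed by at most 1.24-fold, for *Csf3r*. The 3 genes therefore moved together between the Tnfr2-/- samples but not between the Tnfr1-/- samples.

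Ratios within a sample do not depend on how that sample was scaled. In WT the order of levels was *Csf3r*, *Mmp9*, *Retnlg*, and in all 4 knockout samples *Retnlg* was the highest. *Retnlg* over *Csf3r* was 0.231 and 0.264 in the WT samples, 8.03 and 4.32 in Tnfr1-/-, and 3.89 and 3.67 in Tnfr2-/-. *Retnlg* over *Mmp9* was 0.735 and 0.615 in WT, 5.75 and 6.20 in Tnfr1-/-, and 4.39 and 5.61 in Tnfr2-/-. *Csf3r* over *Mmp9* went the other way, with 3.19 and 2.33 in WT, 0.716 and 1.44 in Tnfr1-/-, and 1.13 and 1.53 in Tnfr2-/-. The 3 genes thus shared a direction against WT but not a size, and their proportions were not the same in WT and knockout samples.

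**Figure D3:**
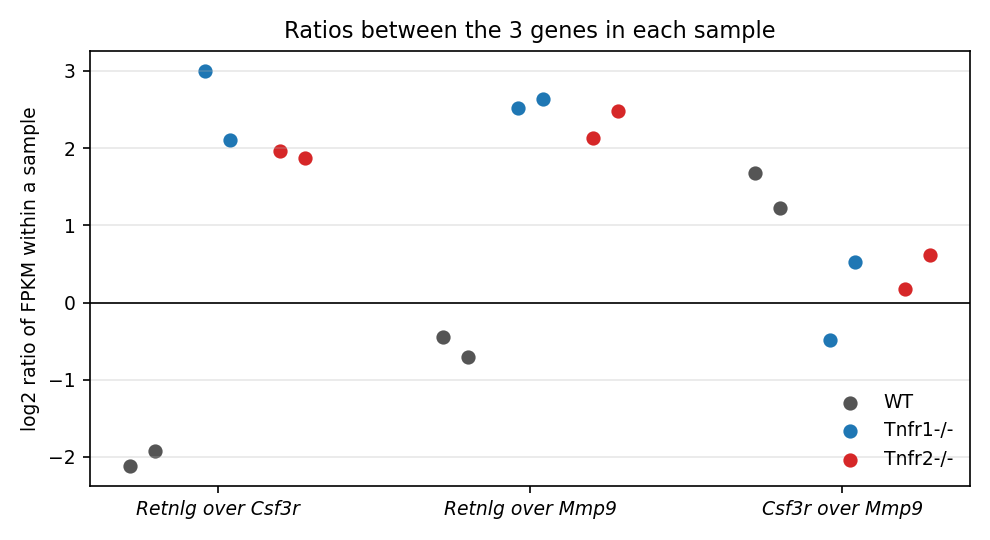
log2 of the FPKM ratio of each pair of the 3 genes within each sample, with 2 points per genotype and a line at equal levels. Both ratios with *Retnlg* on top are below 0 in WT and above 0 in every knockout sample, from -2.12 to 3.01 for *Retnlg* over *Csf3r*.

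The genes nearest in profile were found by the Euclidean distance between log2(FPKM + 1) profiles over the 6 samples, each centred on its own mean. The samples form 3 pairs by genotype, so a short distance says only that 2 genes had about the same differences between these pairs. For *Csf3r*, 4 of the 5 nearest were *Pi16* (a peptidase inhibitor, distance 0.43), *Hp* (haptoglobin, 0.57), *Mrgpra2b* (a Mas-related G protein-coupled receptor, 0.61) and *Ctse* (the aspartic protease cathepsin E, 0.62). *Hp* was at 18.1 and 17.4 FPKM in WT, 640.3 and 624 FPKM in Tnfr1-/-, and 715 and 424 FPKM in Tnfr2-/-. Neutrophils carry haptoglobin in their granules.

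For *Mmp9* the 5 nearest were *Lrg1* (leucine-rich alpha-2-glycoprotein, 0.52), *Evi2b* (a transmembrane protein of leukocytes, 0.58), *Steap4* (a metalloreductase, 1.04), *Ctse* (1.08) and *Mrgpra2b* (1.10). *Lrg1* was at 4.46 and 4.63 FPKM in WT, 468 and 491 FPKM in Tnfr1-/-, and 414 and 183 FPKM in Tnfr2-/-, with the same low second Tnfr2-/- sample as *Mmp9*. *Evi2b* was listed at 0 in both WT samples and at 62.7 to 97.1 FPKM in the knockouts. *Retnlg* had no gene as near. Its nearest was *Slfn4*, a Schlafen gene of myeloid cells, at a distance of 2.10, with 2.26 and 2.24 FPKM in WT, 559.8 and 688 FPKM in Tnfr1-/-, and 458 and 336 FPKM in Tnfr2-/-. After it came *Steap4* (2.85), *Ly6c1* (3.05), *Evi2b* (3.17) and *Mmp9* (3.32). *Ly6c1*, a Ly6 surface antigen gene, was at 0.159 and 0.0638 FPKM in WT, 95.8 and 99.6 FPKM in Tnfr1-/-, and 121 and 178 FPKM in Tnfr2-/-, and so was higher in Tnfr2-/- than in Tnfr1-/- samples, unlike *Retnlg*.

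Among the 12 listed neighbours, 2 on each side of each gene, 8 were lower and 4 higher in every knockout sample than in WT. This count used no threshold, and the same share over all genes was not counted. By limma call, 60.7% and 57.1% of all genes were lower and 14.1% and 13.6% higher in Tnfr1-/- and Tnfr2-/-. The listed gene next to *Csf3r*, *Mrps15* of the mitochondrial ribosome, starts 2.48 kb after it and was at 53.1 and 52.8 FPKM in WT and 17.2 to 20.1 FPKM in the knockouts. The listed gene nearest to *Mmp9* was *Ctsa*, the lysosomal carboxypeptidase cathepsin A, 99.7 kb before it, at 284 and 286 FPKM in WT and 54.5 to 96.8 FPKM in the knockouts. For *Retnlg* the nearest was *Ift57*, 825 kb after it, at 5.79 and 5.48 FPKM in WT and 2.30 to 3.06 FPKM in the knockouts. *Cd47*, the next listed gene after *Ift57*, was at 30.3 and 31.9 FPKM in WT and at 40.8 to 46.1 FPKM in the knockouts.

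The other granulocyte genes were followed with 10 lists by role, which hold 138 genes besides the 3, of which 58 were among the genes analysed. In Tnfr1-/- against WT, 17 of the 58 rose and 35 fell (limma, adjusted over all genes), with a median difference of -1.01 against -0.83 for all genes. In Tnfr2-/- against WT, 19 rose and 30 fell, with a median of -0.64 against -0.74. Of all genes, 14.1% and 13.6% were called higher and 60.7% and 57.1% lower, so the share of fallers in the lists was at or below that of all genes. Both comparisons share the WT samples. With median-ratio scaling 21 of the 58 rose in either comparison, and 17 and 18 fell. Shares of all genes given here and below are for the FPKM as deposited. The shares under the other scalings were not counted, so the list counts under them have no background beside them.

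Most of the neutrophil surface receptors analysed rose. The list holds 19 receptor genes besides *Csf3r*, of which 9 were analysed. Of these 9, 6 rose and 3 fell in each knockout against WT, with a median of 1.93 in Tnfr1-/- and 2.21 in Tnfr2-/-. The medians of all genes were -0.83 and -0.74, and 14.1% and 13.6% of all genes were called higher. *C5ar1*, the receptor of complement C5a, was at 6.69 and 6.19 FPKM in WT, 93.7 and 104.8 FPKM in Tnfr1-/-, and 111 and 66.0 FPKM in Tnfr2-/-. *Trem1*, which amplifies inflammatory signals in neutrophils and monocytes, was at 2.20 and 2.15 FPKM in WT, 33.1 and 41.6 FPKM in Tnfr1-/-, and 32.8 and 30.2 FPKM in Tnfr2-/-. The receptors *Cxcr4*, *Clec4e* and *Ptafr* also rose in both. The fallers were *Tlr2*, *Itgb2* and *Pilra*, and with median-ratio and quantile scaling *Tlr2* alone of these was still called lower.

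Most of the secreted and cytosolic neutrophil genes analysed rose as well. Of 19 listed besides *Retnlg*, 5 were analysed, and 4 of these rose and 1 fell in each knockout. Of all genes, 14.1% and 13.6% were called higher. *Stfa2l1*, a stefin-like protease inhibitor, was at 24.6 and 19.2 FPKM in WT, 383 and 342 FPKM in Tnfr1-/-, and 284 and 209 FPKM in Tnfr2-/-. *Hdc*, which makes histamine, had log2 differences of 5.18 in Tnfr1-/- and 4.51 in Tnfr2-/- (limma, adjusted p = 0.000206 and 0.000359), and *Asprv1*, an aspartic protease, 5.28 and 4.02 (adjusted p = 5.76e-06 and 9.91e-06). *Ifitm1*, an interferon-induced membrane protein, also rose. *Stfa1*, another stefin gene, fell. It was at 15.1 and 12.5 FPKM in WT and at 1.25 and 0.982 FPKM in Tnfr1-/-, and it was listed at 0 in both Tnfr2-/- samples.

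Granule genes were divided. Of 5 secondary granule genes, *Hp* and *Ceacam1*, an adhesion molecule, rose in both knockouts, with *Hp* at log2 differences of 5.08 and 4.88 (limma, adjusted p = 6.11e-05 and 7.90e-05). *Chil3*, a chitinase-like protein of neutrophils and macrophages, fell from 2877 and 3066 FPKM in WT to between 116 and 375 FPKM in the knockouts. *Cyba*, a subunit of the NADPH oxidase, fell in both. *Lyz2*, lysozyme of the whole myeloid lineage, fell in Tnfr1-/- and had a log2 difference of -1.99 in Tnfr2-/- that missed the threshold (limma, adjusted p = 0.0520). Quantile scaling gives genes of equal rank the same value in every sample. *Lyz2* was made equal in this way, so that scaling cannot show whether it differed from WT. With median-ratio scaling 2 of the 5 genes fell in each comparison. With quantile scaling, under which *Lyz2* could not be called, 2 and 1 fell. Of all genes, 60.7% and 57.1% were called lower before scaling. Of 11 listed gelatinase granule and secretory vesicle genes besides *Mmp9*, 3 were analysed. *Hp*, which both lists hold, rose, and the complement factor *Cfp* and the Fc receptor gene *Fcgr3* fell. With median-ratio scaling the *Fcgr3* differences shrank to -0.48 and -0.43, and it was no longer called lower with either other scaling. None of the 9 primary granule genes was among the genes analysed, nor was any of the other 3 genes of the resistin family.

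**Figure D4:**
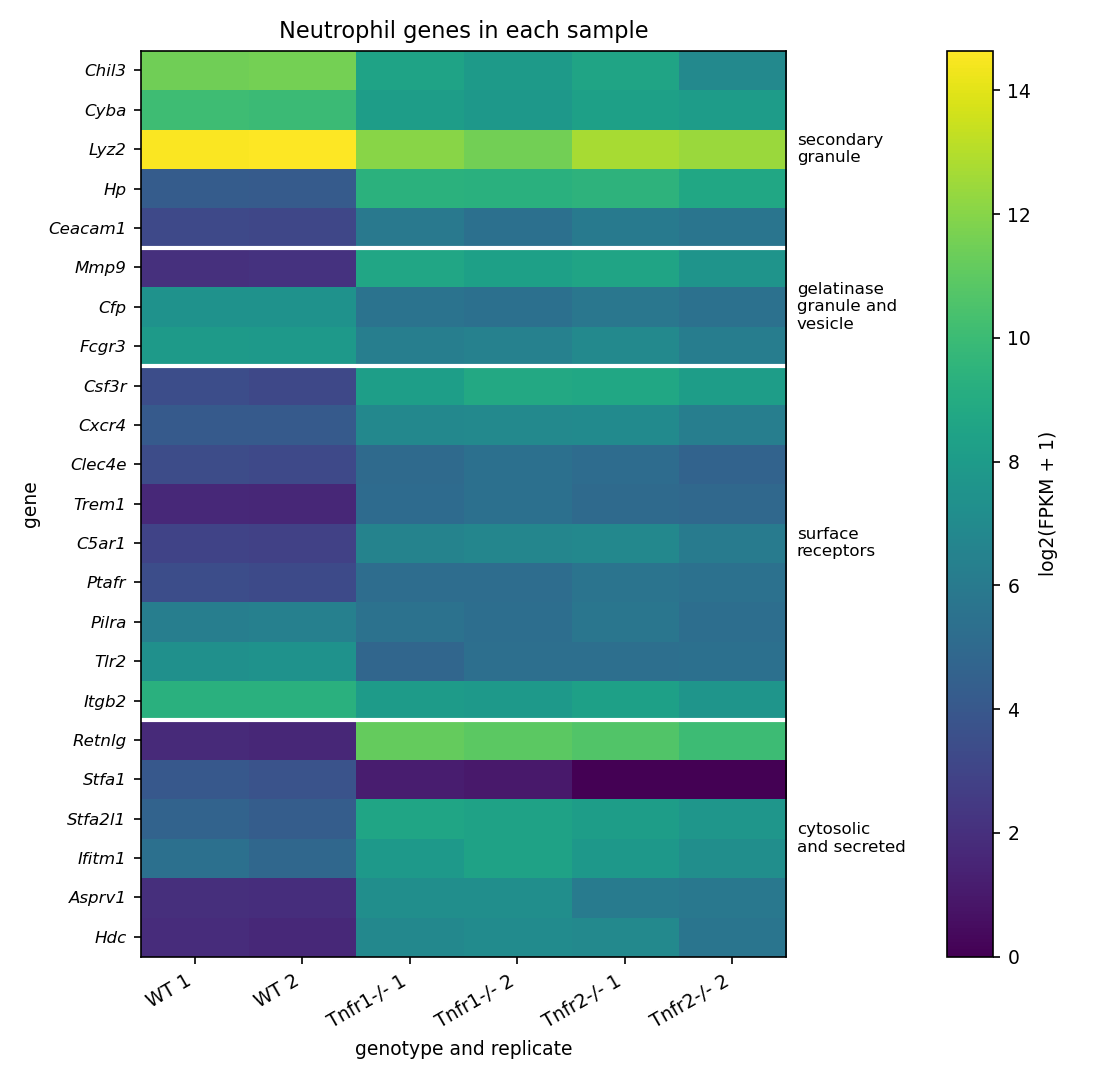
log2(FPKM + 1) of genes of 4 neutrophil lists and of *Retnlg*, *Csf3r* and *Mmp9* in each of the 6 samples, from dark (0) to yellow (highest). *Retnlg*, *Hp*, *Csf3r* and *Mmp9* are brighter in the knockouts than in WT, and *Chil3*, *Lyz2* and *Tlr2* are brighter in WT than in the knockouts.

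The signalling partners of the G-CSF receptor went in both directions. Of 13 analysed genes of this list besides *Csf3r*, 3 rose and 6 fell in Tnfr1-/- against WT, with a median of -0.19, and 5 rose and 3 fell in Tnfr2-/-, with a median of -0.11. Over all genes the medians were -0.83 and -0.74, and 60.7% and 57.1% were called lower. *Lyn*, a Src family kinase, rose most in Tnfr2-/-, by 1.42 (limma, adjusted p = 0.000282), from 54.9 and 54.5 FPKM in WT to 148 FPKM in both Tnfr2-/- samples. *Stat5b* and *Syk* also rose in both knockouts, as did *Fgr* in Tnfr2-/-. *Socs1*, a feedback inhibitor of JAK signalling, fell most, with 28.0 and 25.7 FPKM in WT, 5.95 and 14.0 FPKM in Tnfr1-/-, and 4.32 and 8.94 FPKM in Tnfr2-/-. The falls depended on scaling. With median-ratio scaling 7 genes rose and 0 fell in either comparison, and with it *Tyk2*, *Stat5a*, *Ptpn11*, *Inpp5d* and *Shc1* turned from lower to higher values in both.

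Of 5 transcription factors of granulocyte formation analysed, 4 fell and 1 rose in each knockout against WT, where 60.7% and 57.1% of all genes were called lower. With median-ratio scaling 2 and 1 fell. *Cebpa*, which directs progenitors to the granulocyte lineage, was at 109.6 and 115 FPKM in WT, 15.3 and 17.5 FPKM in Tnfr1-/-, and 33.5 ± 0.674 FPKM (mean ± SD, n = 2) in Tnfr2-/-. It was lower under both other scalings as well. *Nfil3*, a basic leucine zipper factor, rose in both (limma, adjusted p = 0.00221 and 0.00111), from 4.37 and 4.59 FPKM in WT to between 9.80 and 16.4 FPKM in the knockouts. *Spi1*, which encodes PU.1, fell by 1.08 and 0.91, but its sign turned with median-ratio scaling, to 0.05 and 0.08, and that of *Cebpb* turned in Tnfr2-/-, from -0.64 to 0.36.

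Of 8 other haematopoietic cytokine receptor genes, 7 fell and 1 rose in each knockout against WT, with medians of -1.54 and -1.48, beside -0.83 and -0.74 for all genes, of which 60.7% and 57.1% were called lower. *Csf1r*, the receptor of macrophage colony-stimulating factor, was at 225 and 237 FPKM in WT, 71.3 and 92.6 FPKM in Tnfr1-/-, and 137 and 171 FPKM in Tnfr2-/-, and with median-ratio scaling its value in Tnfr2-/- turned to 0.40 above WT. *Epor*, the erythropoietin receptor gene, fell most in Tnfr2-/-, from 7.89 and 8.96 FPKM in WT to 0.183 and 0.233 FPKM. *Flt3*, a receptor of early progenitors and dendritic cells, rose, but only from 0.156 and 0.26 FPKM in WT to between 1.21 and 2.34 FPKM in the knockouts. With median-ratio scaling 3 and 5 of these 8 genes were called lower.

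Of 11 other metalloproteinase and inhibitor genes analysed, 0 rose in either knockout against WT, while 9 fell in Tnfr1-/- and 8 in Tnfr2-/- (limma), and all 11 had lower means in both. Of all genes, 60.7% and 57.1% were called lower in the FPKM as deposited. With median-ratio scaling 7 of the 11 fell in each comparison, and the share of all genes under it was not counted. *Mmp12*, macrophage elastase, was at 1095 and 994 FPKM in WT and at 0.221 to 0.43 FPKM in the knockouts, with a log2 difference of -9.53 in Tnfr2-/- (limma, adjusted p = 5.35e-06). *Timp1* and *Timp2*, inhibitors of these proteases, fell as well, *Timp2* from 64.2 and 66.6 FPKM to between 14.2 and 27.1 FPKM. *Mmp9* was thus the most abundant of the metalloproteinase genes analysed in all knockout samples, and *Mmp12* in both WT samples.

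**Figure D5:**
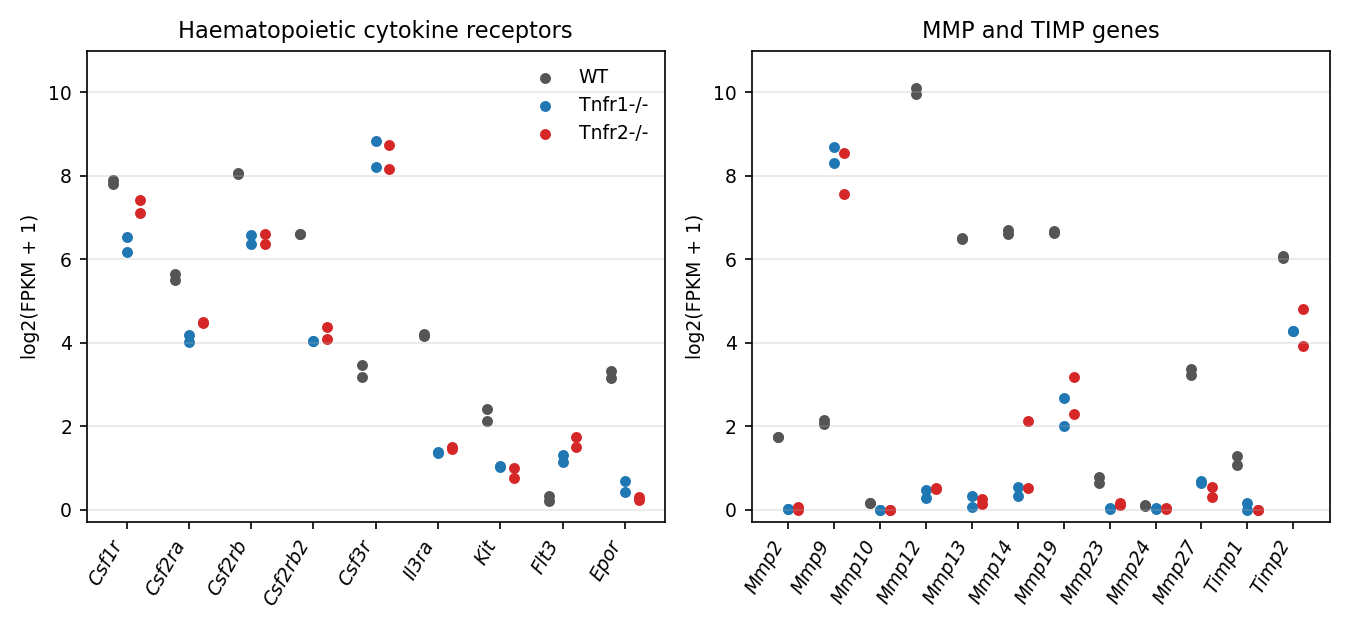
log2(FPKM + 1) of *Csf3r* with the other haematopoietic cytokine receptor genes (left) and of *Mmp9* with the other MMP and TIMP genes (right), with 2 points per genotype. *Csf3r* and *Mmp9* are higher in both knockouts than in WT, while *Csf2rb2*, *Epor*, *Mmp12*, *Mmp13* and *Mmp14* are lower.

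Between the knockouts, 1 of the 58 other list genes was called higher and 2 lower in Tnfr2-/-, against 0.842% and 0.61% of all genes, and 11 had an unadjusted p under 0.05. *Asprv1* was at 151 and 149.7 FPKM in Tnfr1-/- and at 67.1 and 57.7 FPKM in Tnfr2-/-, a log2 difference of -1.26 (limma, adjusted p = 0.0198, and 0.00896 to 0.153 over the alternatives). *Stfa1* fell to values listed at 0 (adjusted p = 0.0367, and 0.00737 to 0.133), and *Cebpa* was higher by 0.99 (limma, adjusted p = 0.0277, and 0.0156 to 0.153). These calls depended on single samples and on the fit, and none of the 58 genes was called with the replicate number as a block, where 13 had an unadjusted p under 0.05. Likewise none was called with either WT sample, either Tnfr1-/- sample or the second Tnfr2-/- sample left out, and 8 were called without the first Tnfr2-/- sample. Of the 19 list genes called higher in Tnfr2-/- than in WT, 16 (84.2%) were higher in the first than in the second Tnfr2-/- sample, as were the 3 genes, compared with 61.1% of the 1115 genes called higher and 39.2% of all genes.

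Markers of other cell types moved with the same contrast, in which 60.7% and 57.1% of all genes were called lower and 14.1% and 13.6% higher. Of 18 neutrophil markers listed apart from the 3 genes, 1 (*Stfa2l1*) was among the genes analysed, and a role list holds it too. The lists were chosen with earlier results of these data known, so they give no independent check of the granulocyte label. Of 13 macrophage markers analysed of 14, 12 fell and 1 rose in each knockout, and their summed level was 3928 to 4071 FPKM in WT, compared with 299 to 342 FPKM for Tnfr1-/- and 377 to 417 FPKM for Tnfr2-/-. With median-ratio scaling the faller *Spic* turned to 0.08 and 0.25 above WT and *Hmox1* shrank to -0.57 and -0.36. The other macrophage fallers kept lower values under it. Of 8 dendritic cell markers, 6 and 5 fell and 1 (*Flt3*) rose in each, with sums of 1680 to 1773 FPKM in WT and 195 to 314 FPKM in the knockouts. With median-ratio scaling the Tnfr2-/- fallers *Clec9a* and *Ccr7* shrank to -0.42 and -0.13, under the fold change of 1.5. *Itgax*, *Bst2* and *H2-Ab1* stayed at -2.79, -1.28 and -1.93 in Tnfr2-/-. Of 5 monocyte markers, 4 rose and 1 fell in each knockout, with sums of 247 to 261 FPKM in WT, compared with 263 to 315 FPKM for Tnfr1-/- and 571 to 647 FPKM for Tnfr2-/-. In Tnfr2-/- against Tnfr1-/-, 2 of these monocyte markers and 2 of the macrophage markers were called higher, and 0 of either list lower. Of all genes, 0.842% were called higher and 0.61% lower in that comparison. The monocyte faller was *Csf1r*, which with median-ratio scaling was at -0.36 in Tnfr1-/- and 0.40 in Tnfr2-/- against WT. All 6 B and plasma cell markers analysed rose in both, with sums of 211 to 245 FPKM in WT and 1203 to 2355 FPKM in the knockouts. No marker of these lists was at 0 in a whole genotype. Of 10 eosinophil, basophil and mast cell markers, 7 and 8 fell and 1 rose, with sums of 77.1 to 78.8 FPKM in WT and 9.24 to 32.2 FPKM in the knockouts, and 1 (*Epx*) was listed at 0 in both Tnfr2-/- samples. The part of these other cells in the levels of *Retnlg*, *Csf3r* and *Mmp9* was not tested. Of 4 T and NK cell markers, 3 and 2 rose and 1 fell, with sums of 39.0 to 42.9 FPKM in WT, compared with 73.2 to 85.2 FPKM for Tnfr1-/- and 42.0 to 43.6 FPKM for Tnfr2-/-. The 1 platelet marker analysed, *Pf4*, fell from 104 and 118 FPKM in WT to 3.12 to 4.30 FPKM in the knockouts. The 1 erythroid marker, *Slc4a1*, was listed at 0 in WT and at 0.409 to 2.30 FPKM in the knockouts. *Epx*, *Pf4* and *Slc4a1* were named after their values were seen.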

How the data were processed

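The authors deposited 1 FPKM value per gene and sample (fragments scaled to transcript length and to mapped fragments) for 8191 genes, made from single-end reads of 50 bases. Per the labels, reads were checked with FastQC, edgeR was used, and the build was mm10. The aligner and annotation are not given in the sources used here. A p-value column of the authors' own comparison was not used. A one-way ANOVA recomputed on FPKM over the 3 genotypes gave p under 0.05 for 8191 genes, so every gene had been picked for a difference. The limma p-values given here were adjusted over these picked genes only. They describe these genes and do not measure how often such differences would arise by chance. Depth is unknown.

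The deposited FPKM were analysed as log2(FPKM + 1). A linear model of all genes was fitted in R 4.3.3 by limma 3.58.1, using eBayes with trend, over all 6 samples, two-sided, with Benjamini-Hochberg adjustment over all genes. Genes with an adjusted p under 0.05 and a fold change over 1.5 were called, and the fit was checked on simulated data. *Retnlg*, *Csf3r* and *Mmp9* were chosen with earlier results of these data known, as were the gene lists, so no p is given for the 3 genes. With 2 samples against 2, the smallest two-sided p of an exact permutation test is 0.333. Named genes are the 3 genes, genes of the fixed lists with the highest and the lowest difference among them, and the 5 genes nearest in profile to each. Neighbouring genes were named by position. Some genes that these rules name are counted in their lists and not reported here. Replicate numbers were not taken as pairs, since no source says that a number marks an experiment and replicate differences correlated at only 0.022 to 0.046 over genes between genotypes. Alternatives were another pseudocount, median-ratio and quantile scaling, a filter on low values, a replicate block, other fits, and each sample left out in turn. Positions and transcripts are those of GENCODE M21 (GRCm38), and promoter windows come from RefSeq (GRCm38.p6). Python 3.11.15, NumPy 2.4.6, pandas 2.3.3, SciPy 1.17.1 and matplotlib 3.10.9 were used.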

Additional observations from a re-analysis of the deposited data

How the results depend on the processing

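Depth is unknown for these FPKM values, each genotype has 2 samples, and how WT values were made follows the genotype. All differences of the 3 genes from WT were positive with the other pseudocount, both other scalings and each sample left out. A pseudocount of 0.1 moved *Retnlg* to 9.86 (Tnfr1-/- minus WT) and 9.15 (Tnfr2-/- minus WT). Median-ratio scaling gave 10.26 and 9.40 for *Retnlg*, 6.25 and 6.03 for *Csf3r*, and 7.33 and 6.74 for *Mmp9*, and quantile normalization 10.74 and 9.58, 6.14 and 6.02, and 7.44 and 6.78. Both change the scale of the samples. By median-ratio scaling, which brings medians near 0 by its method, the median of all genes against WT moved from -0.83 and -0.74 to -0.033 and -0.032. *Retnlg* between the knockouts was -1.16 with quantile normalization.

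With each sample left out in turn, *Retnlg* ran from 9.25 to 9.52 (Tnfr1-/- minus WT), 8.35 to 9.003 (Tnfr2-/- minus WT) and -1.04 to -0.38 (between the knockouts), *Csf3r* from 4.89 to 5.51, 4.84 to 5.41 and -0.38 to 0.24, and *Mmp9* from 6.21 to 6.58, 5.45 to 6.46 and -0.94 to 0.06 (0.0604 without the second Tnfr2-/- sample).

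Of the 58 other list genes, median-ratio scaling left 17 fallers in Tnfr1-/- against WT, as did quantile normalization (17), in place of 35. In Tnfr2-/-, 18 and 16 fell in place of 30. The shares of all genes called under these 2 scalings were not counted. Left-out samples gave 17 to 19 risers and 33 to 35 fallers in Tnfr1-/-, and 18 to 19 and 27 to 31 in Tnfr2-/-. Between the knockouts they gave 0 to 3 genes higher and 0 to 5 lower. A lone sample is then assumed to vary like the other genotypes. There, 2 genes were higher with quantile normalization and 2 with a mean of at least 1 FPKM, in place of 1. No gene was higher or lower with only the 2 genotypes in the fit (0 and 0, and 9 at an unadjusted p under 0.05), and eBayes without trend gave 0 and 1 (13 unadjusted). None was higher with a fold change over 2 (0). Whether replicate numbers mark the experiments is not given in the sources used here. With a replicate block 17 genes rose and 35 fell in Tnfr1-/-, 19 rose and 30 fell in Tnfr2-/-, and the counts were 0 and 0 between the knockouts (13 unadjusted). The cause of these moves was not tested beyond the scaling.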
